A study of Mus musculus with 7 samples.

Results

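Laminins, many of them cross-shaped, are proteins of the basement membrane, the thin matrix sheet that underlies epithelium and wraps each smooth muscle cell. Each laminin is a trimer of an alpha, a beta and a gamma chain, and the chains present differ between tissues. Alpha-2 and alpha-4 chains are typical of muscle, vessel and nerve. The alpha-3 and beta-3 chains belong to the laminin that anchors epithelium. Nidogens bind the gamma-1 chain and tie the laminin network to the collagen IV network. In the bladder wall such sheets lie under the urothelium, the lining that faces the urine, and around the cells of the detrusor, the smooth muscle that empties the organ.

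The 10 genes described here were chosen by name: the laminin chains Lama2, Lama3, Lama4, Lama5, Lamb1, Lamb2, Lamb3 and Lamc1, and the nidogens Nid1 and Nid2. All 10 were found among 18193 genes named alone by at least 1 probe set, and 20 probe sets carried their names. The probe set with the highest mean intensity over the 7 arrays stands for each gene. The muscle chains are taken as Lama2, Lama4, Lamb1 and Lamb2, the epithelial chains as Lama3, Lama5 and Lamb3, with Lamc1 shared by both kinds. This split is a working grouping, since chains other than Lamc1, such as Lama5 in vessels, also occur outside their group.

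Bladder RNA came from 3 adult mice (Theiler stage 28) and 3 pups of postnatal day 1 (P1, Theiler stage 27), all FVB/N males that carry the transgene SMGA/EGFP, in which the promoter of Actg2, smooth muscle gamma-actin, drives a green fluorescent protein. The bladders were dissected whole, so urothelium, muscle, vessels and nerves were measured together. A single further array held a pool of 4 male and 4 female wild-type FVB/N newborns, ground whole and also of postnatal day 1. Its title speaks of bladders, but its source and its protocol describe whole animals, and it is called the whole-newborn reference here. Adult bladders were kept in liquid nitrogen and P1 bladders in a freezer, and storage cannot be told apart from stage. The labels call no bladder sample pooled but do not say whether samples shared a litter, and p-values measure the spread between such samples only. Fewer cells of a type and less RNA per cell cannot be told apart in whole organs.

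The arrays gave median intensities between 209 and 312 for bladder and of 434 for the reference. Of 12 smooth muscle markers 10 were higher in P1 bladder than in the reference, and of 17 urothelial markers 9, so the labelled organ's own markers were present. The spike-in controls stood highest in adult replicate 2, at 2.24 times the lowest array, then in the reference, at 1.79 times, and in P1 replicate 3, at 1.56 times; the last is the highest P1 array. The alternative without spike-in-rich arrays leaves out adult replicate 2 and P1 replicate 3 and keeps the reference. Transcripts of male accessory glands were present in adult replicates 1 and 3: 12 such markers summed to 11108.5 and 11303 on those arrays, against 635 on that of adult replicate 2 and 474 to 734 on the P1 arrays. Svs2 and Svs4, defining markers of the seminal vesicle, read 6.06 and 3.45 in adult replicate 2. These arrays are named beside the results they touch.

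Intensities are the authors' values on a linear scale that gives every array the same trimmed mean. Differences are given on the scale of log2(intensity + 49), which understates the change of dim genes, and were tested with limma over all probe sets that passed a filter on low values, with Benjamini-Hochberg adjustment. A gene is said to have risen or fallen if its adjusted p was under 0.05. Different probe sets bind with different strength, so levels are compared between arrays and never between genes.

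The comparison of adult with P1 bladder asks how the basement membrane genes of a growing organ differ from those of the mature one. Lamb1 and both nidogens were lower in adult bladder, by 2.46-fold for Lamb1, 2.02-fold for Nid1 and 4.27-fold for Nid2, and no member rose. Lamb2, the beta chain that can take the place of Lamb1, did not fall with it. Thus 3 of the 10 members fell and 0 rose, where 8.97% of all 11930 genes tested changed, 4.02% rising and 4.95% falling. At an unadjusted p under 0.05 (limma) there were 5 members. The share of all genes at that unadjusted level is not given here, so this count cannot be set against the shares above. The 10 members had a median difference of -0.77 and all genes tested one of -0.01. All 10 passed the filter, and each but Nid2 lay above the array median on all 7 arrays, and Nid2 was above it on 2 of 3 adult and all 3 P1 arrays.

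**Figure D1:**
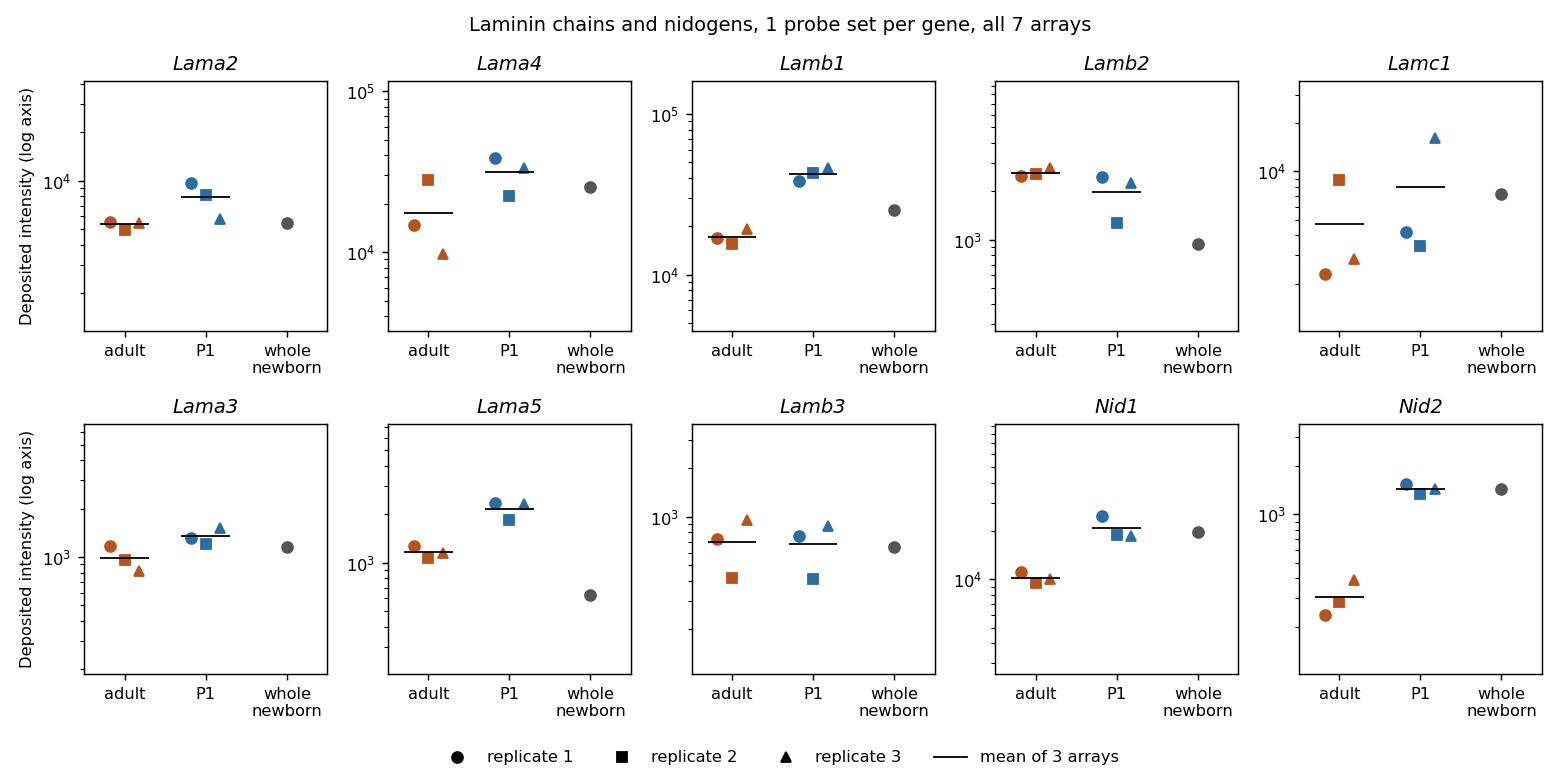
Deposited intensity (log axis, each panel spanning the same ratio) of the 10 genes on the 7 arrays: adult bladder, P1 bladder and the whole-newborn reference, with a marker shape per replicate and a line at the mean of 3 arrays. Lama2, Lama3, Lama5, Lamb1, Nid1 and Nid2 are lower in adult than in P1 bladder without overlap, and Lamb2 is higher. Lamb3 spreads over nearly the same range at both stages.

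Lamb1 encodes the beta-1 chain, the beta chain of most laminins of embryo and muscle. It read 16839, 15521 and 19250 in adult replicates 1 to 3, and 38152, 42856 and 45934 in P1 replicates 1 to 3. Every P1 array was above every adult array. The mean fell from 42314 ± 3919 to 17203 ± 1891 (SD, n = 3), a log2 difference of -1.30 with SE 0.18 (limma, adjusted p = 0.00464). The call held in all 19 alternatives run on this probe set. A second probe set of Lamb1 read 1405.8, 960 and 1704 in adult against 3977, 3734 and 5388 in P1 bladder. It gave a log2 difference of -1.67 (adjusted p = 0.0129, where 7.85% of all 23304 probe sets tested were called), and lost its call without adult replicate 1 and with adult replicate 2 as the only adult array. The remaining probe sets of Lamb1 were dim, at 13.6 to 1207 in the bladders. The dimmer of them did not pass the filter and was not tested. The other differed by -1.74, with no overlap of the stages, and was not called (limma adjusted p = 0.156).

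Lamb2 encodes the beta-2 chain, a chain of the neuromuscular synapse and of the basement membranes of vessels and smooth muscle. Its values were 2495, 2576 and 2777 in adult and 2456, 1273 and 2240.3 in P1 bladder. The adult arrays lay just above the P1 arrays, and P1 replicate 2 stood apart as the lowest. The difference of 0.44 (95% interval -0.26 to 1.14) did not pass the test (adjusted p = 0.445).

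Within each array the gap between the beta chains moved the same way. Lamb2 minus Lamb1 on the log2 scale was -2.73, -2.57 and -2.77 in adult bladder and -3.93, -5.02 and -4.33 in P1 bladder, so that the adult arrays shifted by 1.74 toward Lamb2. The stages did not overlap. In the whole-newborn reference the gap was -4.67, within the range of the P1 bladders. These gaps are a description of chosen genes and were given no test.

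The nidogens, also called entactins, are the linkers between laminin and collagen IV. Nid1 read 11024, 9500 and 10040 in adult and 24835, 18976 and 18504 in P1 bladder. The adult arrays lay close together, well under the lowest P1 array. The mean fell from 20772 ± 3527 to 10188 ± 772 (SD, n = 3), with a log2 difference of -1.01, SE 0.21 and limma adjusted p = 0.0206. That call was lost in 7 of 19 alternatives run on this probe set (adjusted p from 0.00349 to 0.14 over all of them), which were median centring (0.0603), no trend, the fit with adult replicate 2 as the only adult array (0.14), and leaving out adult replicate 1 or 3 or P1 replicate 1 or 2. It was also lost by the mean of Nid1's probe sets, at -0.56 (adjusted p = 0.392). The second probe set of Nid1 read 127, 368 and 221 in adult and 278, 255 and 1528 in P1 bladder, where the stages overlapped and P1 replicate 3 stood apart, with a difference of -0.99 that was not called (adjusted p = 0.409).

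Nid2 had the largest stage difference of the 10. It read 237, 286 and 388 in adult and 1543, 1339 and 1426 in P1 bladder. The mean fell from 1436 ± 102 to 303.6 ± 77.2 (SD, n = 3), a log2 difference of -2.09 (SE 0.32, limma adjusted p = 0.00642). In adult bladder Nid2 was close to the array median and under it in replicate 2, so that its fold depends on the added 49. The call was lost in 1 of 19 alternatives, with adult replicate 2 as the only adult array, at adjusted p = 0.0869. The log2 gap of Nid1 over Nid2 went from 3.65 to 3.97 in P1 bladder to 4.53 to 5.28 in adult bladder, and the reference, at 3.74, lay within the P1 range.

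Promoter sequence from RefSeq (GRCm38.p6) was at hand for 6 of the 10 genes: Lama2, Lama5, Lamb1, Lamb2, Lamb3 and Nid1. The 250 bases before the start are shown for Lamb1 and Nid1, which fell together, and for Lamb2, which did not. Capitals mark matches, on either strand, to the GC box GGGCGG (reverse complement CCGCCC), the CCAAT box CCAAT (reverse complement ATTGG), the TATA box TATAAA and the AP-1 motif TGANTCA. The windows are chr12:31265043-31265292 (+ strand) for Lamb1, chr13:13437352-13437601 (+ strand) for Nid1 and chr9:108479612-108479861 (+ strand) for Lamb2.
Lamb1: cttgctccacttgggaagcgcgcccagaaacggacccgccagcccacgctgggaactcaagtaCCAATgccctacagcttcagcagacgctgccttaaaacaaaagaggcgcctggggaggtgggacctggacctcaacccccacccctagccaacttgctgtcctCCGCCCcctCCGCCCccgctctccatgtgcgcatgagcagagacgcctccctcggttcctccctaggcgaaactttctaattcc
Nid1: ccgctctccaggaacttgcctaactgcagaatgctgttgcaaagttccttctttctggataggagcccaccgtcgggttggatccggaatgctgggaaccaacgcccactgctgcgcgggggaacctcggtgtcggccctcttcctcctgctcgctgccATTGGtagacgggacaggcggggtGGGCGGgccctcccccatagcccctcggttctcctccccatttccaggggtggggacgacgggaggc
Lamb2: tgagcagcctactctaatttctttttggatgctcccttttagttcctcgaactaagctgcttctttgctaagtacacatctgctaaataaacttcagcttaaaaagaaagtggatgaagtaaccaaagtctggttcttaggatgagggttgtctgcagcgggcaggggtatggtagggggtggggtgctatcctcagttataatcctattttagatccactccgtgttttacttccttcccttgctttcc

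Lamb1 held 2 GC boxes, which began 84 and 75 bases before the start, and a CCAAT box at 187 bases. Nid1 held a GC box at 67 bases and a CCAAT box at 91 bases. In the Lamb2 window none of the 4 motifs was found. Of all 32851 windows of this length 32.7% held the GC box, 33.8% the CCAAT box, 12.4% the TATA box and 6.75% the AP-1 motif. CpG pairs numbered 14 in Lamb1, 16 in Nid1 and 3 in Lamb2, with a median of 6 over all windows. Lama5 held 4 GC boxes and 19 CpG pairs, and the windows of Lama2 and Lamb3 held none of the motifs. A match to letters describes the sequence and does not show that a factor binds there.

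**Figure D2:**
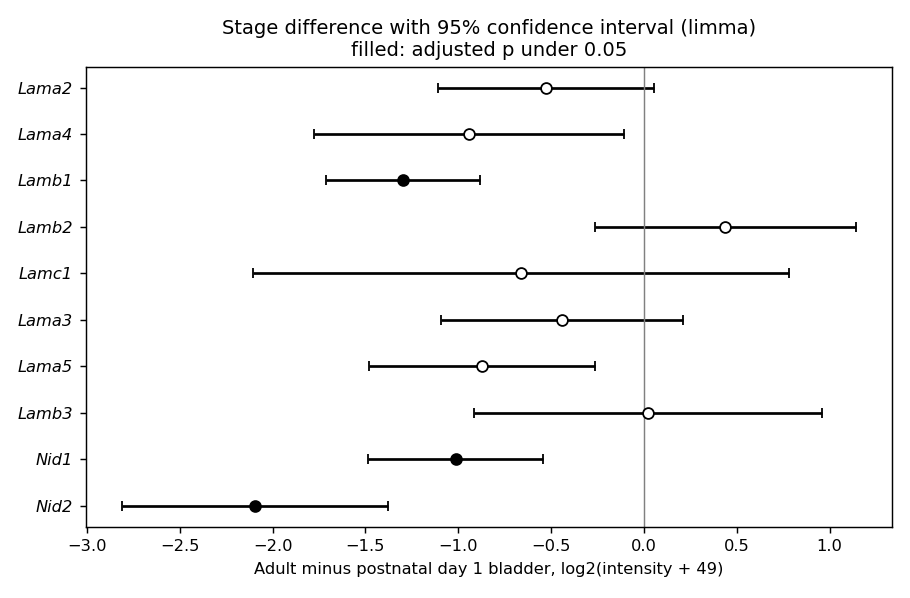
Adult minus P1 bladder for the 10 genes on the scale of log2(intensity + 49), with the 95% confidence interval from limma. Filled points mark Lamb1, Nid1 and Nid2, the members with adjusted p under 0.05, and only Lamb2 (0.44) and Lamb3 (0.02) lie right of 0.

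The other muscle-type alpha chains were not called. Lama2 encodes the alpha-2 chain, the laminin chain of muscle fibres, whose loss causes a congenital muscular dystrophy. It read 5568, 4969 and 5481 in adult and 9711, 8162 and 5785 in P1 bladder. The stages did not overlap, but P1 replicate 3 was close to the adult arrays. The difference was -0.53 (95% interval -1.11 to 0.05, adjusted p = 0.255).

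Lama4, the alpha-4 chain of vessels, nerve and smooth muscle, read 14678, 28071 and 9741 in adult and 38347, 22341 and 33436 in P1 bladder. Adult replicate 2, the array of highest spike-in signal, lay inside the P1 range. The difference of -0.94 did not pass (adjusted p = 0.161), and it was -1.35 with adjusted p = 0.0257 when that array was left out. Without both spike-in-rich arrays Lama4 gave adjusted p = 0.0479 and with array weights 0.00965, over a range of 0.00965 to 0.884 in all 19 alternatives. The second probe set of Lama4 placed adult replicate 2 lowest: 6497, 5482 and 8023 in adult against 14797, 7796 and 9573 in P1 bladder, with a difference of -0.65 (adjusted p = 0.214).

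Lamc1, the gamma-1 chain that carries the nidogen-binding site, gave different readings from its 2 probe sets. The brighter, which stands for the gene, read 2288, 8873 and 2868 in adult and 4219, 3445 and 16155 in P1 bladder. Adult replicate 2 and P1 replicate 3 were 3.44 and 4.22 times the mean of the other arrays of their stage, and these are the bladder arrays of highest spike-in signal; the part of that signal in the result was not tested. The difference was -0.66 with SE 0.64 (adjusted p = 0.586), and -0.56 without both of these arrays (adjusted p = 0.211). The dimmer probe set read 707, 722 and 813 in adult and 1548, 1532 and 1695 in P1 bladder, with both stages tight and well apart. Its difference was -1.04 (SE 0.27, limma adjusted p = 0.04996), just inside the threshold, and that call was lost in 13 of 19 alternatives (adjusted p from 0.0206 to 0.278, differences from -1.10 to -0.98).

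**Figure D3:**
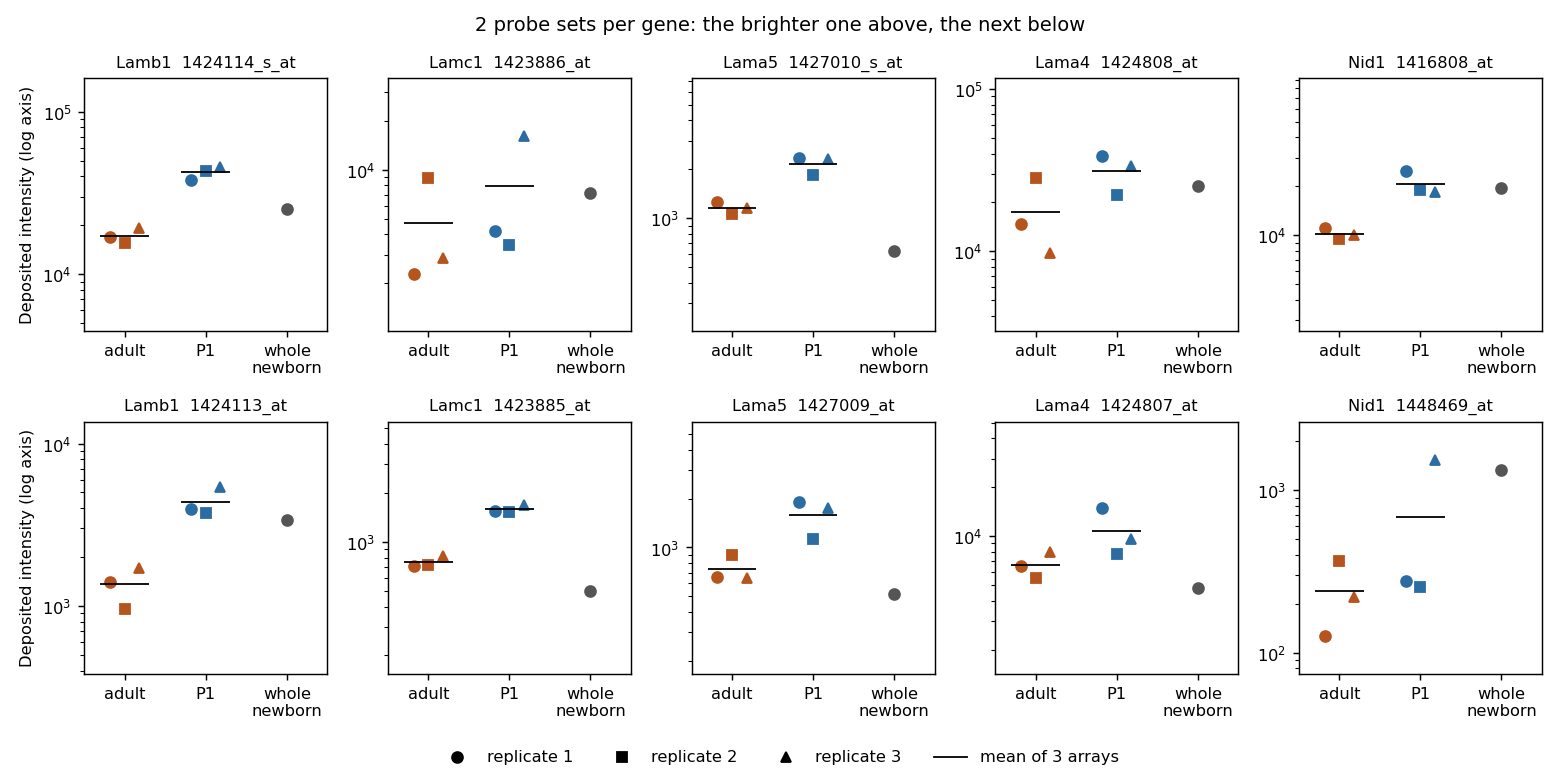
Deposited intensity (log axis) of 2 probe sets for each of Lamb1, Lamc1, Lama5, Lama4 and Nid1, the brighter above and the next below, by group and replicate, with a line at the mean of 3 arrays. The Lamb1 and Lama5 pairs separate the stages in the same way, whereas the brighter Lamc1 probe set and the dimmer Nid1 probe set are raised in P1 replicate 3.

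The epithelial chains did not pass the test between the stages. Lama5, the alpha-5 chain found under most mature epithelia and in vessels, read 1268, 1065 and 1151 in adult and 2341, 1853 and 2321 in P1 bladder. All adult arrays were below all P1 arrays. Its difference of -0.87 (SE 0.27) had adjusted p = 0.0841, and the second probe set gave -1.04 with adjusted p = 0.0829. Array weights brought the first to adjusted p = 0.0319 and the second to 0.0161, and neither passed in any of the other 18 alternatives.

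Lama3 and Lamb3 encode alpha-3 and beta-3, chains of the laminin that holds epithelial cells to their base. Lama3 read 1173, 964 and 822 in adult and 1312.5, 1214 and 1520 in P1 bladder. The stages did not overlap, by a small margin between adult replicate 1 and P1 replicate 2, and the difference was -0.44 (95% interval -1.09 to 0.21, adjusted p = 0.405). Lamb3 read 724, 415 and 956 in adult and 758, 413 and 873 in P1 bladder. Both stages covered nearly the same range, with replicate 2 lowest in each. The Lamb3 difference was 0.02, with a 95% interval from -0.91 to 0.96, which leaves room for a change of nearly 2-fold either way.

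In all, 6 of the 10 members had every adult array below every P1 array and 1, Lamb2, the reverse. Over all genes tested the shares were 16.5% and 15.8%. The 4 muscle chains had a median difference of -0.74 and the 3 epithelial chains one of -0.44. The mean log2 value of the muscle chains was 12.85 to 13.09 in adult and 13.30 to 13.75 in P1 bladder, with no overlap, and that of the epithelial chains was 9.65 to 10.07 in adult and 10.02 to 10.56 in P1 bladder. Their gap, muscle minus epithelial, was 2.84, 3.43 and 2.86 in adult and 3.32, 3.29 and 2.99 in P1 bladder. Adult replicate 2 stood above all P1 arrays and the other adult arrays below them, so the gap did not order the stages. Among the epithelial chains the gap of Lama3 over Lama5 was -0.46 to -0.11 in adult, -0.81 to -0.59 in P1 bladder and 0.85 in the reference.

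**Figure D4:**
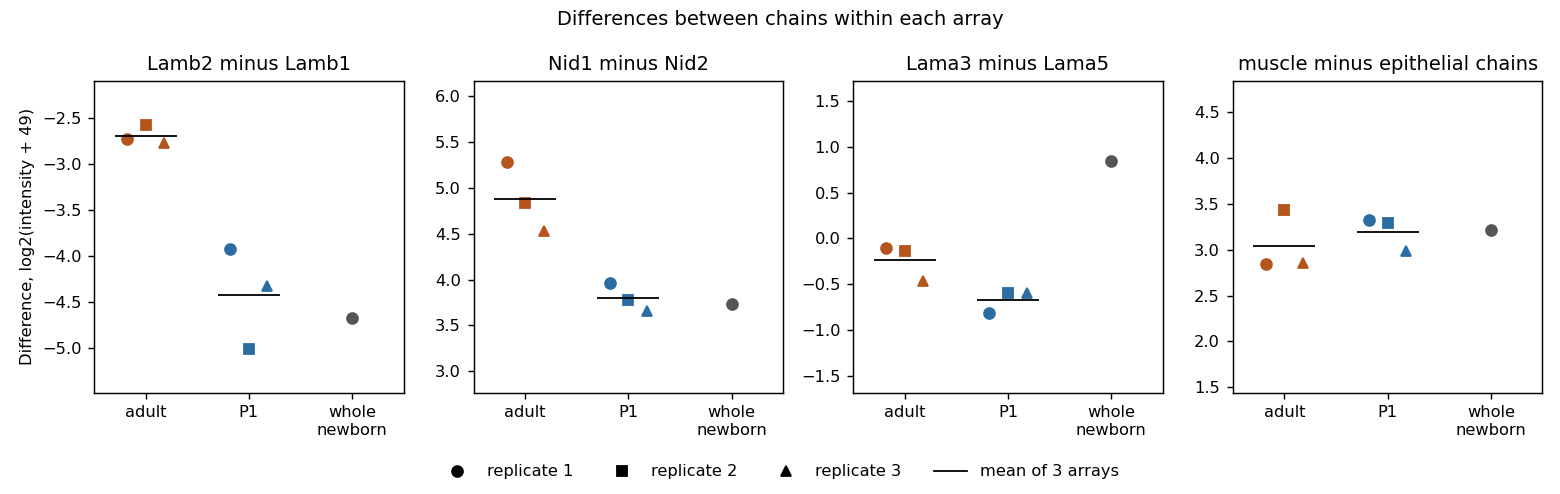
Differences between chains within each array on the log2(intensity + 49) scale: Lamb2 minus Lamb1, Nid1 minus Nid2, Lama3 minus Lama5, and the mean of 4 muscle chains minus the mean of 3 epithelial chains; points are arrays and lines are means of 3. The first 3 gaps separate adult from P1 bladder, the last does not.

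Markers of smooth muscle, urothelium and endothelium were mostly not called between the stages. Of 12 smooth muscle markers 0 were called (limma), with a median difference of 0.02, and of 17 urothelial markers 1 was called, Trp63, the basal cell regulator, which rose by 1.00, a call lost in 9 of 19 alternatives. The summed smooth muscle signal was 417450 to 608374 in adult and 397771 to 510468 in P1 bladder, and the summed urothelial signal 300067 to 371700 and 315397 to 411423. Of 8 endothelial markers tested 0 were called, with summed signals of 13047 to 16116 and 12288 to 17038. By contrast 11 of 11 cell division genes fell, with a median of -3.62, and 6 of 8 skeletal muscle markers tested (of 11 on the array) fell, with summed signals of 18176 to 20500 in adult and 77153 to 111476 in P1 bladder. Of 8 fibroblast markers 1 fell, the collagen chain Col1a1 (-1.98), and of 4 Schwann cell markers tested 0 were called. The mean log2 value of the 6 Schwann cell markers on the array was 9.97 to 10.21 in adult and 9.27 to 9.79 in P1 bladder, without overlap. Their summed signals did overlap, at 14555 to 15665 and 11599 to 16510. Of 5 mesothelial markers tested 1 rose, Gpm6a (3.66), and 0 fell, while Upk3b, Msln, Wt1 and Krt19 were not called, at 0.19, 0.20, -0.74 and -0.66. Lrrn4, which did not pass the filter, read 594, 469.5 and 217 in adult and 116, 104 and 27.6 in P1 bladder. The mean log2 value of all 6 mesothelial markers was 10.68 to 11.34 in adult and 9.86 to 10.45 in P1 bladder, without overlap. Their summed signals did overlap, at 36621 to 45164 and 36816 to 53640. Of 2 adipocyte markers tested Adipoq, the hormone adiponectin, rose by 3.65 and Fabp4, a fatty acid carrier, fell by 0.74. The summed adipocyte signal was 25399 to 27675 in adult and 39893 to 50127 in P1 bladder. Most of that sum was Fabp4, with means of 25693 in adult and 43311 in P1 bladder. The mean log2 value of the same 4 markers ran the other way, at 8.87 to 10.29 in adult and 8.40 to 8.61 in P1 bladder. The part of dividing cells, striated muscle, fibroblasts, Schwann cells, mesothelium and fat in the laminin and nidogen values was not tested.

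Other genes of the laminin family were dim or not called. Lama1, the alpha-1 chain of the early embryo, read 76.9 to 232 in adult and 235 to 367 in P1 bladder, with a difference of -1.10 (adjusted p = 0.206). Lamc3, the gamma-3 chain, read 206 to 321 in adult and 167 to 305.5 in P1 bladder. Ntn4, a netrin related to the laminin beta chains that enters basement membranes, read 1085, 1289.5 and 1628 in adult and 597, 510 and 939 in P1 bladder. All adult arrays of Ntn4 were above the P1 arrays, but the difference of 0.94 did not pass (adjusted p = 0.126). Ntn1, a guidance netrin, differed by -0.15 (adjusted p = 0.874).

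Of 20 further genes of collagen IV and other basement membrane proteins tested, 7 fell in adult bladder and 0 rose, with a median of -0.56. Frem1, Frem2 and Fras1, which build the complex that joins epithelium to mesenchyme before birth, fell by 3.90, 1.92 and 1.92 (limma adjusted p from 0.00245 to 0.017). Frem1 read 142, 72.4 and 387 in adult against 4208, 2718 and 2793 in P1 bladder. Npnt, nephronectin, an integrin ligand, fell by 2.04, and Col15a1, a collagen of muscle and vessel basement membranes, by 1.52. Frem1 and Npnt were called in all 19 alternatives, Frem2 in all but the one with adult replicate 2 as the only adult array, and Fras1 and Col15a1 each in 14. The chains of collagen IV in its common form did not pass: Col4a1 differed by -0.54 (adjusted p = 0.256) and Col4a2 by -0.94 (adjusted p = 0.0668). The count of 7 was 2 with adult replicate 2 as the only adult array, 3 without adult replicate 3 or without P1 replicate 3, 4 without any 1 of adult replicate 1 and P1 replicates 1 and 2, and 9 without adult replicate 2, with 1 rise.

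Pxdn, peroxidasin, which forms the sulfilimine cross-links of collagen IV, fell by 1.48 (limma adjusted p = 0.00475) and was the only call among 15 genes of matrix assembly and turnover. It read 9431, 7491 and 9587 in adult against 28104.5, 22357 and 23470 in P1 bladder. Of 7 genes that anchor epithelium 1 fell, Col7a1, the anchoring fibril collagen (-1.41), which was not called without adult replicate 1 or 3, P1 replicate 1 or 2, or both adult replicates 1 and 3, while Itgb4, the integrin chain that binds the laminin of Lama3 and Lamb3, differed by -0.55 (adjusted p = 0.482).

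Of 17 genes tested for laminin receptors and their partners in the dystrophin-glycoprotein complex, 2 rose and 0 fell, with a median of 0.34. Over all genes tested 4.02% rose. The 2 that rose, Sspn and Sgcb, are such partners. Sspn, sarcospan, of the dystrophin-glycoprotein complex that links Lama2 laminin to the muscle cell, read 16848, 13295 and 18638.5 in adult and 3206, 3059.5 and 2265 in P1 bladder. It rose by 2.50 (limma adjusted p = 0.00131). Sgcb, a sarcoglycan of the same complex, read 14975, 13306 and 17037 in adult and 6261, 6976 and 3119 in P1 bladder, a rise of 1.54 (limma adjusted p = 0.0207). Without both arrays that held accessory gland transcripts the rise of Sspn was not called (adjusted p = 0.065, the highest of 19 alternatives), nor was that of Sgcb, which was also lost with median centring and without adult replicate 1 or 3. Dmd, dystrophin, differed by 0.94 and Utrn, utrophin, by 0.79, both with adjusted p = 0.131, and Dag1, dystroglycan, by -0.16 (adjusted p = 0.662). The integrin chains Itga3, Itga6, Itga7 and Itgb1 differed by -0.75, -0.31, 1.27 and -0.49, none of which passed (adjusted p from 0.147 to 0.436).

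The comparison of bladder with whole newborns asks which chains the organ holds above the average of the body. Because the reference is 1 array, all spread was estimated among bladder samples, and the reference was assumed to vary like them. Lama5 was higher in P1 bladder than in the reference, by 3.27-fold, and Nid2 was lower in adult bladder than in the reference, by 4.24-fold; no other member passed. The comparisons share the reference array. In the first, 1 of 10 members was higher and 0 lower, where 9.58% of 13745 genes changed, 3.19% higher and 6.39% lower. In the second, 0 were higher and 1 lower, where 15.3% of 13504 genes changed, 6.1% higher and 9.23% lower. The reference had the highest median intensity, and centring the arrays on their medians raised the median difference over all probe sets tested from -0.15 to 0.53 for P1 and from -0.17 to 0.50 for adult bladder. It turned 650 higher and 1451 lower probe sets into 1651 and 859 for P1 bladder, and 1235 and 2020 into 2680 and 1216 for adult bladder. Quantile normalization gave 1186 and 1266 for P1 and 1968 and 1839 for adult bladder.

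Lama5 read 626 in the reference, under all 6 bladder arrays, and 296% to 374% of that level in P1 bladder. The difference of P1 bladder was 1.71 (SE 0.39, limma adjusted p = 0.0323), and 2.39 with centring. The call was lost without any 1 of adult replicates 1 and 3 and P1 replicates 1, 2 and 3, and with adult replicate 2 as the only adult array, with adjusted p from 0.0104 to 0.096 over 17 alternatives. Adult bladder stood at 170% to 203% of the reference, a difference of 0.84 (adjusted p = 0.216). The second probe set of Lama5 read 519 in the reference and differed by 1.50 in P1 bladder (adjusted p = 0.0944).

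Lamb2 was also lowest in the reference, at 941, against 135% to 261% of that level in P1 and 265% to 295% in adult bladder. The differences of 0.99 (adjusted p = 0.226) and 1.43 (adjusted p = 0.0733) did not pass. For adult bladder Lamb2 was called with median centring (2.10, adjusted p = 0.0202), quantile normalization, array weights, by the mean of probe sets and without P1 replicate 2, with adjusted p from 0.0114 to 0.299. Lamb1 read 25231 in the reference, between the stages, at 151% to 182% of it in P1 and 61.5% to 76.3% in adult bladder. Its differences were 0.74 (adjusted p = 0.126) and -0.56 (adjusted p = 0.214), and with centring the latter turned to 0.11. The second probe set of Lamb1 read 3381 in the reference, with P1 bladder at 110% to 159% and adult bladder at 28.4% to 50.4%. It differed by 0.35 in P1 (limma adjusted p = 0.696) and by -1.32 in adult bladder (adjusted p = 0.0832). With centring its adult difference was -0.65 and kept its sign.

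Nid2 read 1424 in the reference, and P1 bladder was at 94.0% to 108% of it, against 16.6% to 27.2% in adult bladder. The adult difference was -2.09 (SE 0.46, limma adjusted p = 0.0205), or -1.42 with centring, where it was not called (adjusted p = 0.0828). It was not called without adult replicate 1 (0.0601) or with adult replicate 2 alone for the stage (0.101), over a range from 0.0055 to 0.101. Nid1 read 19593.5 in the reference, with P1 bladder at 94.4% to 127% and adult bladder at 48.5% to 56.3%. Its adult difference was -0.94 (adjusted p = 0.0701), and -0.27 with centring. It was called in 5 alternatives: quantile normalization (-1.08), array weights, the mean of probe sets (-1.83), without adult replicate 2, and without both spike-in-rich bladder arrays. Adjusted p ran from 0.0105 to 0.657. The second probe set of Nid1 read 1330 in the reference, with P1 bladder at 19.2% to 115% and adult bladder at 9.58% to 27.6%. It differed by -1.35 in P1 (limma adjusted p = 0.443) and by -2.35 in adult bladder (adjusted p = 0.144). The level of Nid1 in P1 bladder against the reference thus depended on the probe set.

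Lama2 and Lama4 read 5438 and 25350 in the reference. Lama2 stood at 106% to 179% of the reference in P1 and 91.4% to 102% in adult bladder, and Lama4 at 88.1% to 151% and 38.4% to 111%. The second probe set of Lama4 read 4812 in the reference, with P1 bladder at 162% to 307% and adult bladder at 114% to 167%. It differed by 1.10 in P1 (limma adjusted p = 0.148) and by 0.45 in adult bladder (adjusted p = 0.538). The brighter Lama4 probe set gave -0.67 in adult bladder, so that direction depended on the probe set. Lama3 read 1164 in the reference, with P1 bladder at 104% to 131% and adult bladder at 70.6% to 101%. Lamb3 read 648 there, with 63.8% to 135% in P1 and 64.1% to 148% in adult bladder, so the reference lay inside both ranges. On the probe sets that stand for these 4 genes no difference from the reference was called under the main setting. Their adjusted p ran from 0.465 to 0.996. Lamc1 again depended on the probe set: the brighter read 7197 in the reference and differed by -0.22 in P1 bladder (adjusted p = 0.922), whereas the dimmer read 495 and was higher in P1 bladder by 1.59 (limma adjusted p = 0.0477, where 7.42% of 28316 probe sets were called). In adult bladder the brighter was not called under the main setting but was without both spike-in-rich bladder arrays, at -1.47 (adjusted p = 0.0213), where the reference, whose spike-in signal was above that of P1 replicate 3, stayed in. The P1 call of the dimmer was lost in 9 of 17 alternatives, with adjusted p from 0.0127 to 0.117.

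**Figure D5:**
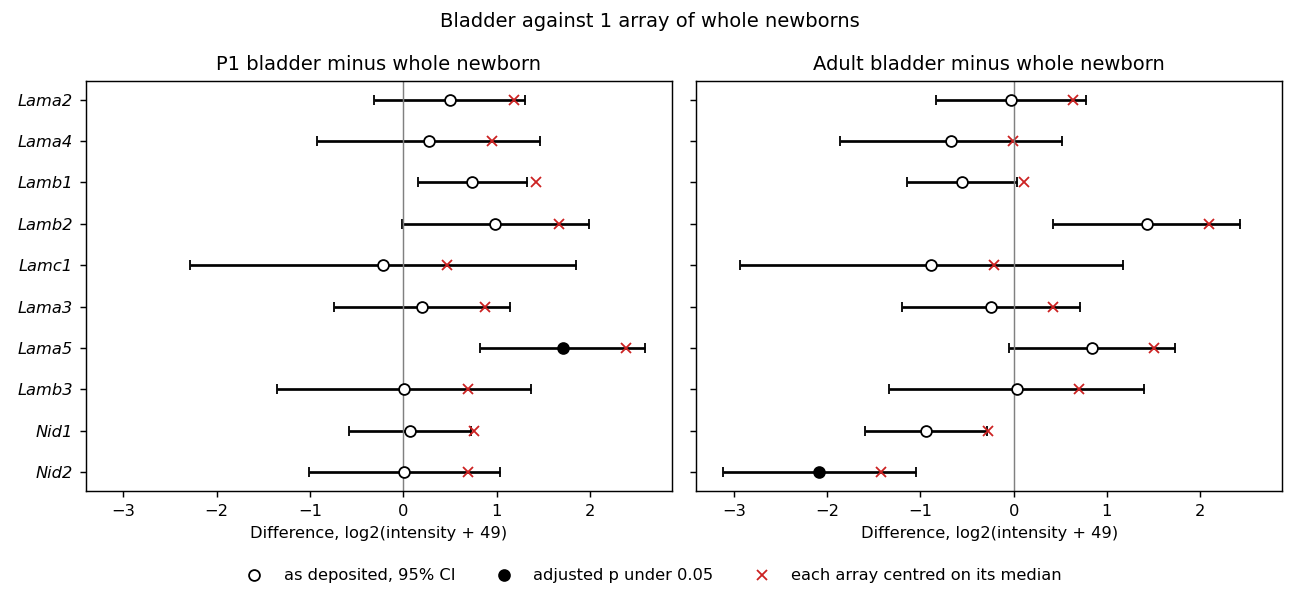
Differences of P1 bladder (left) and adult bladder (right) from the whole-newborn reference for the 10 genes on the log2(intensity + 49) scale, with 95% intervals from limma; filled points have adjusted p under 0.05 and crosses show the value with each array centred on its median. Lama5 in P1 bladder and Nid2 in adult bladder are filled, and every cross lies right of its point.

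The partners of the laminins were higher or lower than the reference in a few cases. In P1 bladder 4 of 20 basement membrane genes tested were higher and 0 lower: Col4a5, a chain of the collagen IV of smooth muscle and some epithelia (1.61), Fbln1, fibulin-1 (3.27), Tinagl1, a matricellular protein of basement membranes (2.41), and Frem2 (2.36). In adult bladder Fbln1 (3.49), Col4a6 (2.88) and Col4a5 (1.75) were higher and Npnt was lower (-1.88). Itga1, a receptor chain for collagen IV and laminin, was higher at both stages, by 2.11 in P1 and 2.44 in adult bladder. Of 7 genes that anchor epithelium 1 was higher and 1 lower in P1 bladder, and 1 higher and 2 lower in adult bladder. Dst, a plakin that ties the cytoskeleton to hemidesmosomes, was higher at both, by 1.27 and 1.51, and its P1 call was lost in 6 of 17 alternatives. Col7a1 was lower in adult bladder (-1.68), a call lost in 5 of 17. Col17a1, the hemidesmosome collagen of skin and other stratified epithelia, was lower at both, by -2.34 and -2.72; in P1 bladder that call was lost with median centring and without P1 replicate 2, and at both stages with adult replicate 2 as the only adult array. Without adult replicate 3, or with adult replicate 2 alone, Col4a5 and Col4a6 were not called in adult bladder. The P1 call of Col4a5 was lost in 6 of 17 alternatives and the adult call of Npnt in 7, whereas Fbln1 and Itga1 were called at both stages in all 17. The count of basement membrane genes in P1 bladder went from 4 to 11 with centring, 8 with array weights or without both spike-in-rich arrays, and 7 without adult replicate 2. It fell to 3 with no trend, without adult replicate 1, and without P1 replicate 1 or 3.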

How the data were processed

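The labels' protocols give RNeasy extraction, 2 rounds of amplification and biotin labelling for every sample, and the submitters' processing notes name GCOS, without a version. The authors deposited linear intensities, 1 per probe set; how they were summarised and scaled is not given in the sources used here. After trimming 2% at either end, each array averaged 1500.01. Of 45101 probe sets, 64 controls were left out; 34945 of the others name 1 gene in the platform annotation, 932 several and 9160 none.

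Values were analysed as log2(intensity + 49), 49 being the 20th percentile of all values, rounded, with no centring. For the stages, probe sets above the array median in at least 3 of 6 arrays were tested on the 6 bladder arrays; for the reference comparisons, 1 array of the 4 in question was enough, and all 7 arrays were fitted in 3 groups. Two-sided tests came from limma 3.58.1 under R 4.3.3, with lmFit, trended eBayes and Benjamini-Hochberg adjustment over all probe sets tested. Alternatives were array weights, median centring, quantile normalization, pseudocounts of 17 and 128, a stricter filter (70th percentile) or none, a robust eBayes or one without trend, gene means over probe sets, all 7 arrays in 1 fit, a minimum of 1 log2 unit, and leaving out arrays. With 1 array left out, the filter asked for as many arrays as the smaller group held. The fit was also run on simulated data, with independent noise of the same size on every array for a given probe set. That run does not test whether the reference varies like the bladders, and its outcome is not given here.

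Named were the 10 members, the other laminin family genes, up to 4 called genes of each partner list by adjusted p, exceptions, and defining markers. Members, lists and the choice of arrays to leave out were made with earlier results of these data known. Col15a1, Col4a1, Col4a2, Dmd, Utrn, Dag1, the integrin chains and Itgb4, and the mesothelial markers not called or not tested, were named in addition, with their values seen. Probe sets ending in _s_at, such as those that stand for Lamb1 and Lama5, can match more than one transcript. Replicate numbers follow accession order and pair no samples. The number of arrays limits the precision.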

Additional observations from a re-analysis of the deposited data

How the results depend on the processing

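No paired analysis was possible because the labels give no replicate numbers that groups share. Of the differences of the 10 members recomputed under the alternatives, 487 kept their direction and side of the threshold, 19 lost the call, 18 gained one and 31 changed sign; all sign changes were of differences that had not been called. For adult against P1 bladder, 3 members were called, 5 with array weights and 1 with adult replicate 2 as the only adult array, and 2 to 4 when single arrays were left out. For P1 bladder against the reference, 1 was called, 2 with median centring or array weights, 0 by the mean of probe sets or with adult replicate 2 alone, and 0 to 1 without single arrays. For adult bladder against the reference, 1 was called, 3 with quantile normalization, by the mean of probe sets or without both spike-in-rich arrays, 4 with array weights, 0 with adult replicate 2 alone, and 0 to 2 without single arrays. Over all probe sets, the 1829 calls between the stages became 4660 with array weights, 245 with adult replicate 2 alone and 606 to 2321 without single arrays, fewest without adult replicate 3. The 2101 calls of P1 bladder against the reference became 4172 with array weights, 4087 once both spike-in-rich arrays were dropped, and 962 with adult replicate 2 alone, and the 3255 of adult bladder 8364, 6130 and 1166. The cause of these moves was not tested.

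Between the stages, Lamb3 read -0.043 with quantile normalization and -0.59 with adult replicate 2 alone, and -0.28 to 0.33 without single arrays. Lamc1 read 0.52 with adult replicate 2 alone and -1.25 to 0.026 without single arrays. In P1 bladder against the reference, Nid1 read -0.076 with quantile normalization, -1.27 by the mean of probe sets and -0.064 to 0.15 without single arrays. Lamc1 read 0.46 with median centring, 0.69 by the mean of probe sets and -0.91 to 0.20 without single arrays. Lamb3 read -0.029 with array weights, -0.19 without the spike-in-rich arrays and -0.19 to 0.31 without single arrays, and Nid2 -0.042 to 0.057. In adult bladder against the reference, Lama3 read 0.073 with quantile normalization and 0.43 with median centring, Lamb1 0.11 and Lama2 0.64 with median centring. Lama2 read 0.0091 with array weights, 0.023 without the spike-in-rich arrays and -0.059 to 0.023 without single arrays. With adult replicate 2 alone Lamb3 read -0.59, Lamc1 0.30 and Lama4 0.15, and Lamb3 read -0.22 to 0.34 without single arrays. Lama3 was not tested by the mean of probe sets, and Lamb3 was not tested at the 70th percentile in the comparisons with P1 bladder. A lone adult array was assumed to vary like the P1 arrays.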

Other observations

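On several dim probe sets, chosen after their values were seen, P1 replicate 3 stood above the other P1 arrays. It read 1207 on a dim probe set of Lamb1 against 273 and 300 in the other P1 arrays, 447 on another against 73.1 and 102, and 1528 on a dim probe set of Nid1 against 278 and 255. A dim probe set of Lama3 did not show this, at 36.8 against 54.8 and 14.6. The same array was the highest for the brighter probe set of Lamc1 and had the lowest Actb ratio of 3' over 5' signal, 1.85 against 3.18 and 3.70 in the other P1 arrays and 3.84 to 5.15 in adult bladders. The Gapdh ratio of that array, 19.1, was the lowest of the P1 arrays (21.6 and 30.9 in the others) but lay inside the adult range of 15.3 to 19.6. The Actb ratio was thus higher in adult bladder and the Gapdh ratio mostly lower. The part of RNA quality in these readings was not tested.

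For Lama2 and Lamb3 all 12190 genes that passed a filter on low values were ranked by the root mean square difference of their log2 profile over the 7 arrays. Closest to Lama2 were Fbxo21 (0.057), Atxn1l (0.078) and Tctn3 (0.094), and closest to Lamb3 were Zfp532 (0.13), Ddx51 (0.19) and Tm2d3 (0.19). Among the vessel genes, Cdh5, the endothelial cadherin, read 822 to 1098 in adult and 1777 to 2865 in P1 bladder, and Ptprb, an endothelial phosphatase, 4393 to 5624 and 2784 to 3119, the reverse order; neither was called.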
